A study of Mus musculus with 12 samples.

Results

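Astrocytes signal with calcium that is released from and returned to the endoplasmic reticulum. The transcripts of 10 genes of that cycle are described here: the IP3 receptors Itpr1, Itpr2 and Itpr3, the reticulum pump Atp2a2, the plasma membrane pumps Atp2b1 and Atp2b4, the sodium-calcium exchanger Slc8a1, and the store-operated entry genes Stim1, Orai1 and Trpc1. They were chosen by symbol from a table of 56791 genes, by a rule that does not use their values, though earlier results of these data were known. Of the 10 genes, 9 passed a filter on low values that 17540 genes passed. None of them differed between the genotypes beyond the spread between replicates at a limma adjusted p under 0.05, as did 0% of the 17540 genes. Atp2a2 was the highest and among the steadiest, at 98.5 FPKM in Ctrl and 99.4 FPKM in cKO, and Itpr2 made up most of the IP3 receptor transcript. Slc8a1 and Atp2b4 varied most between units among the 9.

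The samples are hippocampal astrocytes of naive adult male mice, isolated by fluorescence-activated sorting with an antibody to ACSA-2, an astrocyte surface antigen. Both genotypes carry floxed alleles of Tnfrsf1b, the gene of the tumour necrosis factor receptor TNFR2. Ctrl mice are Tnfrsf1b fl/fl, and cKO mice are GfapcreERT2:Tnfrsf1b fl/fl, in which a tamoxifen-activated Cre is driven by the promoter of the astrocyte gene Gfap. Each genotype has 6 libraries, S1 and S2 of 3 A numbers: A1, A2 and A8 for Ctrl and A4, A9 and A10 for cKO. The labels used here define neither letter and state no tamoxifen dose, no age in weeks and no pooling of mice. The mean of the S1 and S2 libraries of 1 A number is called a unit, so n = 3 for each genotype. Since no label says that A numbers are separate mice, p-values measure the spread between these units, which may in part be technical.

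The libraries held 17311872 to 35323322 reads, recovered from the steps of the low FPKM values, with S2 deeper than S1 in every unit. The deletion could not be checked on Tnfrsf1b itself. The gene had 4 reads in S1 of the Ctrl unit A1, 10 and 22 reads in S1 and S2 of A4, a unit labelled cKO, and 0 reads in the other 9 libraries, where a count of 0 allows up to 3 reads. The most reads therefore lay in a unit labelled as deleted, and directions below are those of the labels. Defining astrocyte markers were high in all units. Aqp4, the water channel of astrocyte endfeet, stood at 171.5 to 229.4 FPKM in Ctrl and 218.2 to 267.2 FPKM in cKO. Aldh1l1 stood at 38.5, 41.6 and 41.4 FPKM in A1, A2 and A8 and at 45.7, 47.8 and 47.6 FPKM in A4, A9 and A10. Of the 10 listed astrocyte markers, 9 had a higher mean in cKO and 1 a lower one. The astrocyte list summed to 3638 to 4447 FPKM in Ctrl and 4347 to 4977 FPKM in cKO, which overlap. Oligodendrocyte markers also moved with the labels. All 10 listed genes had a lower mean in cKO, and they summed to 1049 to 2273 FPKM in Ctrl and to 302.1 to 720.1 FPKM in cKO. The oligodendrocyte precursor list summed to 127.1 to 167 FPKM in Ctrl and 77.5 to 105.9 FPKM in cKO, and the microglial list to 14.3 to 19.1 and 20.7 to 36.5 FPKM, while the neuronal, endothelial, mural, ependymal and choroid plexus lists overlapped. Each listed marker was above 0 in at least 1 library. In sorted bulk samples fewer cells of a type and less RNA per cell cannot be told apart.

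When a receptor on the cell surface activates phospholipase C, the enzyme makes IP3, which opens IP3 receptors in the reticulum membrane and lets stored calcium into the cytosol. SERCA pumps return calcium to the store, while plasma membrane calcium pumps and sodium-calcium exchangers remove it from the cell. When the store empties, STIM1 in the reticulum membrane gates ORAI1 channels in the plasma membrane, and TRPC1 can join that entry. In astrocytes the type 2 IP3 receptor is best known for large calcium rises in the cell body.

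FPKM divides by the exonic length in the deposited table, which is 2295 bases for Orai1 and 18911 for Slc8a1. Levels can be compared between genes only as far as that length matches the transcripts present, which was not tested. Averaged over the 6 units, Atp2a2 stood 5.21-fold above Itpr2, and Itpr2 stood 2.12-fold above Atp2b1. Atp2b1 in turn was 1.25-fold above Orai1. These 3 steps held in 6 of 6 units. Orai1 and Stim1 did not separate, with Orai1 higher in 4 of 6 units by a mean of 1.07-fold. Stim1 was above Atp2b4 in 6 of 6 units, by 1.68-fold. Atp2b4, Itpr1 and Trpc1 were not clearly ordered: Atp2b4 exceeded Itpr1 in 4 of 6 units, and Itpr1 exceeded Trpc1 in 2 of 6. Slc8a1 lay below Trpc1 in all 6 units and Itpr3 lay 6.04-fold below Slc8a1.

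**Figure D1:**
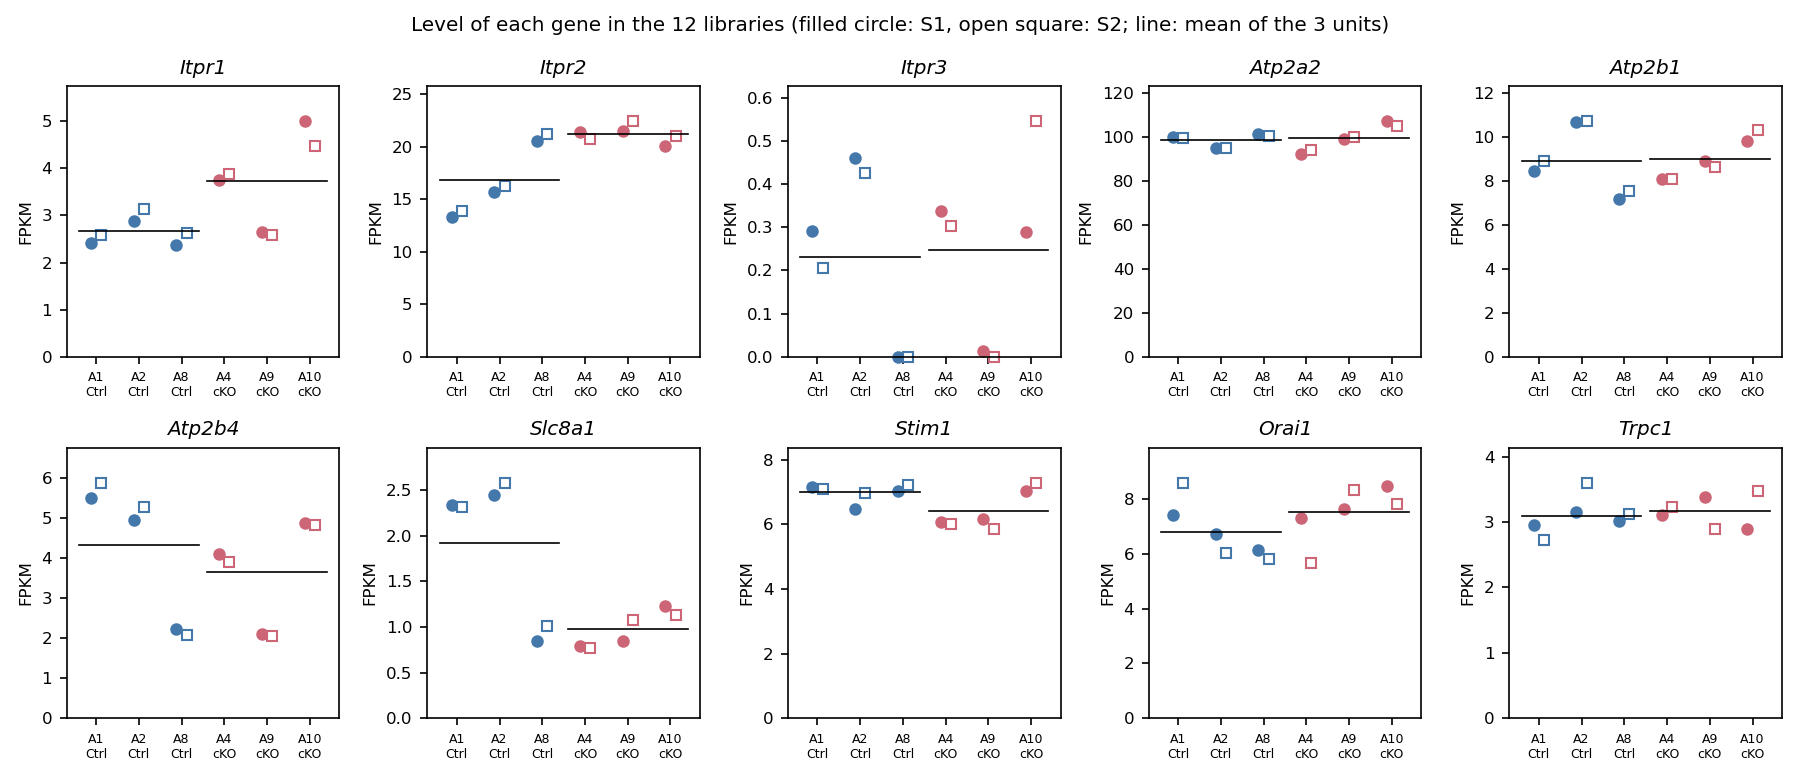
FPKM of each of the 10 genes (vertical axis, starting at 0) in the 12 libraries (horizontal axis, grouped by A number and genotype); filled circles are S1, open squares S2 and lines the mean of the 3 units of a genotype. Slc8a1 is high in A1 and A2 alone, Itpr2 is low in the same 2 units, and Atp2a2 stays between 92.9 and 105.9 FPKM in all 6 units.

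Itpr2 (ENSMUSG00000030287, chr6:146009797-146403721, minus strand, in the deposited coordinates, whose build is uncertain) was the predominant IP3 receptor and stood above 89.7% of the tested genes. Its level was 13.6, 15.9 and 20.8 FPKM in the Ctrl units A1, A2 and A8, and 21.1, 22.0 and 20.5 FPKM in the cKO units A4, A9 and A10. The groups overlapped because A8 lay within the cKO range, while A1 and A2 were below every cKO unit. The mean FPKM was 16.8 ± 3.69 over the Ctrl units and 21.2 ± 0.716 over the cKO units (SD, n = 3), a difference of 0.34 on the log2(FPKM + 1) scale, cKO minus Ctrl (SE 0.17, unadjusted p = 0.0852, limma adjusted p = 0.723). Without A8 the difference was 0.49, with an unadjusted p of 0.00656 and a limma adjusted p of 0.186, and without A1 it was 0.20, with an unadjusted p of 0.232 and a limma adjusted p of 0.841. With the units' oligodendrocyte score in the fit it was -0.05, although that score and the genotype overlap in no unit and so cannot be told apart.

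Itpr1 (ENSMUSG00000030102, chr6:108190057-108528070, plus strand) encodes the receptor best known from neurons, above all Purkinje cells. It stood at 2.50, 3.01 and 2.50 FPKM in A1, A2 and A8 and at 3.81, 2.62 and 4.74 FPKM in A4, A9 and A10. The cKO units A4 and A10 were above all Ctrl units, whereas A9 lay among them. The log2 difference was 0.34 (SE 0.23, limma adjusted p = 0.831), and it was 0.19 without A10 and 0.52 without A9. S1 and S2 repeated the order of the cKO units, with 3.74 and 3.88 FPKM in A4, 2.65 and 2.59 FPKM in A9, and 4.48 FPKM or more in A10. The listed neuronal markers summed to 3.28, 4.14 and 6.69 FPKM in A4, A9 and A10, against 6.05 FPKM or more in Ctrl, and their part in the Itpr1 levels was not tested.

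Itpr3 (ENSMUSG00000042644, chr17:27276278-27341197, plus strand), the receptor type common in secretory epithelia, had a mean FPKM of 0.231 ± 0.222 over the Ctrl units and 0.248 ± 0.215 over the cKO units (SD, n = 3) and did not pass the filter of a mean of 1 FPKM. It was present or absent by unit more than by genotype. S1 and S2 gave 50 and 58 reads in A1, 72 and 108 reads in A2 and 47 and 143 reads in A10. A8 had 0 reads in both libraries, which allows up to 0.0170 and 0.0106 FPKM, and A9 had 2 reads in S1 and 0 in S2. Each genotype thus held 1 unit at or under the floor of 3 reads. Its exons overlap those of the antisense gene Itpr3os by 233 bases, and use of strand in counting is not given in the sources used here. Exons of Slc8a1, Itpr1, Atp2a2 and Orai1 also overlap genes of the opposite strand. The largest of these overlaps, 296 bases in Slc8a1, is 1.565% of its exonic length, against 2.583% for Itpr3.

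Atp2a2 (ENSMUSG00000029467, chr5:122591576-122640288, minus strand) encodes SERCA2, the pump that fills the store. Its level was 99.6, 95 and 100.8 FPKM in the Ctrl units and 92.9, 99.4 and 105.9 FPKM in the cKO units, and the groups overlapped throughout. The log2 difference was 0.01 (SE 0.10), with a 95% interval of -0.23 to 0.25 and a limma adjusted p of 0.994. Only 0.576% of the tested genes had a smaller SD over the 6 units on the log2(FPKM + 1) scale.

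Atp2b1 (ENSMUSG00000019943, chr10:98750268-98862005, plus strand), a widely expressed plasma membrane pump, stood at 8.68, 10.7 and 7.37 FPKM in A1, A2 and A8 and at 8.10, 8.77 and 10.1 FPKM in A4, A9 and A10. All 3 cKO units lay within the Ctrl range. Its log2 difference was 0.02, with a limma adjusted p of 0.994.

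Atp2b4 (ENSMUSG00000026463, chr1:133627195-133728779, minus strand), another pump of the same family, varied more. It stood at 5.68, 5.12 and 2.16 FPKM in A1, A2 and A8, and at 4.0, 2.07 and 4.85 FPKM in A4, A9 and A10. One Ctrl unit and 1 cKO unit were low, and in each of these S1 and S2 agreed closely, with 2.24 and 2.08 FPKM in A8. The log2 difference of -0.17 had an SE of 0.37 and a limma adjusted p of 0.965. The range between units was 13.9-fold the largest S1 to S2 gap of any unit on the log2 scale, so the low units were low in both libraries.

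Slc8a1 (ENSMUSG00000054640, chr17:81680534-82045806, minus strand) encodes the exchanger NCX1, which trades sodium for calcium across the plasma membrane. It stood at 2.32, 2.51 and 0.928 FPKM in A1, A2 and A8 and at 0.779, 0.964 and 1.18 FPKM in A4, A9 and A10. A1 and A2 were each above every other unit, and the third Ctrl unit lay among the cKO units. The mean FPKM was 1.92 ± 0.864 over the Ctrl units and 0.973 ± 0.198 over the cKO units (SD, n = 3), a log2 difference of -0.52 (SE 0.34, limma adjusted p = 0.827). The pseudocount of 1 is close to this gene's level, and with a pseudocount of 0.1 the difference was -0.82. It was -0.88 with voom on recovered reads, and the gene passed the adjusted threshold in neither. Without A8 it was -0.80 (unadjusted p = 0.0207, limma adjusted p = 0.266), and with the oligodendrocyte score in the fit it was 0.33. Oligodendrocyte markers summed to 2088 and 2273 FPKM in A1 and A2 and to 1049 FPKM or less in the other 4 units. Immediate-early genes, which report recent stimulation, summed to 1149 and 1297 FPKM in A1 and A2 and to 613.7 FPKM or less in the others. The part of either in the Slc8a1 levels was not tested.

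Stim1 (ENSMUSG00000030987, chr7:101917013-102086526, plus strand), the store's calcium sensor, stood at 7.12, 6.72 and 7.13 FPKM in A1, A2 and A8. The cKO units A4, A9 and A10 stood at 6.05, 6.01 and 7.16 FPKM. A4 and A9 were below every Ctrl unit and A10 was above every one. The log2 difference was -0.11 (SE 0.14, limma adjusted p = 0.927).

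Orai1 (ENSMUSG00000049686, chr5:123153137-123168519, plus strand), the pore of store-operated entry, stood at 8.0, 6.38 and 5.97 FPKM in the Ctrl units and at 6.5, 7.98 and 8.14 FPKM in the cKO units. The groups overlapped, with A1 at the level of A9 and A10 and with A4 near the lower Ctrl units. The log2 difference was 0.14 (SE 0.17, limma adjusted p = 0.926), with a range of 0.06 (without A8) to 0.24 (without A1) when each unit was left out in turn. Orai1 was among the least repeatable of the 10 between libraries: A4 gave 7.32 FPKM in S1 and 5.67 FPKM in S2, a gap of 0.32 against a range between units of 0.39, in log2.

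Trpc1 (ENSMUSG00000032839, chr9:95587135-95632428, minus strand), a cation channel subunit, stood at 2.84, 3.38 and 3.07 FPKM in A1, A2 and A8. The cKO units were at 3.17, 3.14 and 3.18 FPKM, all inside the Ctrl range. The largest S1 to S2 gap of a unit, 0.20 in log2, was as large as the range between units, 0.19, so these data resolve no difference between units for Trpc1. Its log2 difference was 0.02 (SE 0.17, limma adjusted p = 0.991).

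Across the genotypes, 6 of the 9 tested genes had a higher and 3 a lower mean in cKO, with a median log2 difference of 0.02 against -0.01 over all tested genes. None reached an adjusted p under 0.05 in limma. None reached an unadjusted p under 0.05, where the background was 7.69% of tested genes, 2.98% higher and 4.71% lower in cKO. None had genotypes that did not overlap, where the background was 13.0% in either direction, 5.76% higher and 7.22% lower. The intervals show what was left unresolved: the 95% interval of Itpr1 ran from -0.20 to 0.89 and that of Slc8a1 from -1.34 to 0.29.

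**Figure D2:**
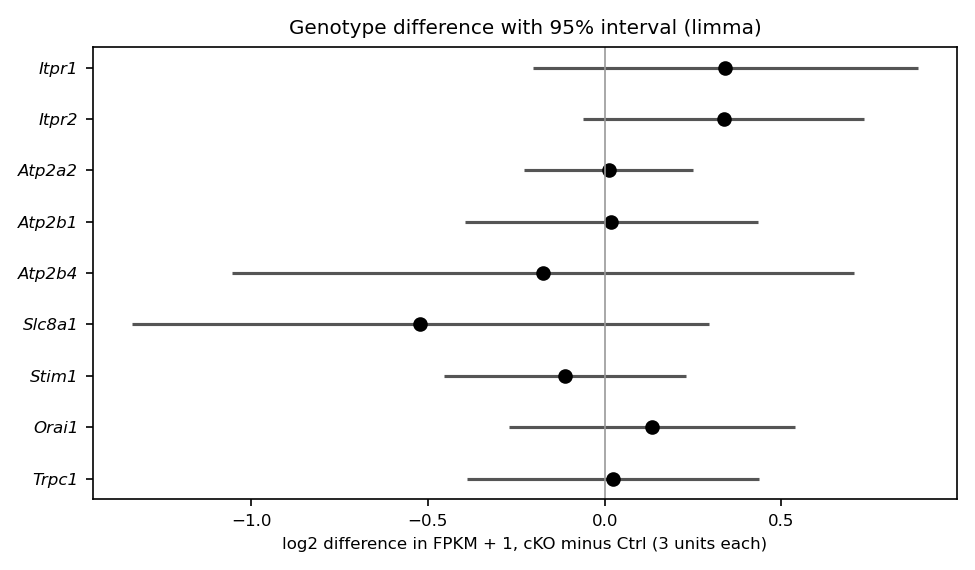
Difference between genotypes for the 9 tested genes (horizontal axis, log2 difference in FPKM + 1, cKO minus Ctrl, 3 units each), with points for the limma estimate and bars for its 95% interval. Every interval includes 0; it is narrowest for Atp2a2 (-0.23 to 0.25) and widest for Atp2b4 and Slc8a1.

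The following patterns across units recurred among the 10 genes. Atp2b4 and Itpr3 were low in A8 and A9 and higher in the other 4 units. Atp2b4 was highest in A1, at 5.68 FPKM, and Itpr3 in A2, at 0.444 FPKM. Itpr2 and Slc8a1 split A1 and A2 from the other 4 units in opposite directions, with a Pearson r of -0.928 and a Spearman rho of -0.771 over 6 units. These coefficients describe units that share libraries and depth and carry no test. The ependymal list, genes of the ciliated cells lining the ventricles, summed to 242.3, 220.1 and 57.2 FPKM in A1, A2 and A8 and to 122.5, 49.8 and 157.9 FPKM in A4, A9 and A10. That is the same order of units as Atp2b4. Its defining marker Foxj1, the master regulator of motile cilia, was at 12 FPKM in A8 and 13.2 FPKM in A9 and at 30.8 FPKM or more in the other 4 units. In A10, where Itpr1 was highest, the choroid plexus list summed to 454.1 FPKM and its marker Ttr stood at 433.3 FPKM, against 73.6 FPKM or less for the list in the other units. The part of these markers in the levels of Atp2b4, Itpr3 and Itpr1 was not tested.

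**Figure D3:**
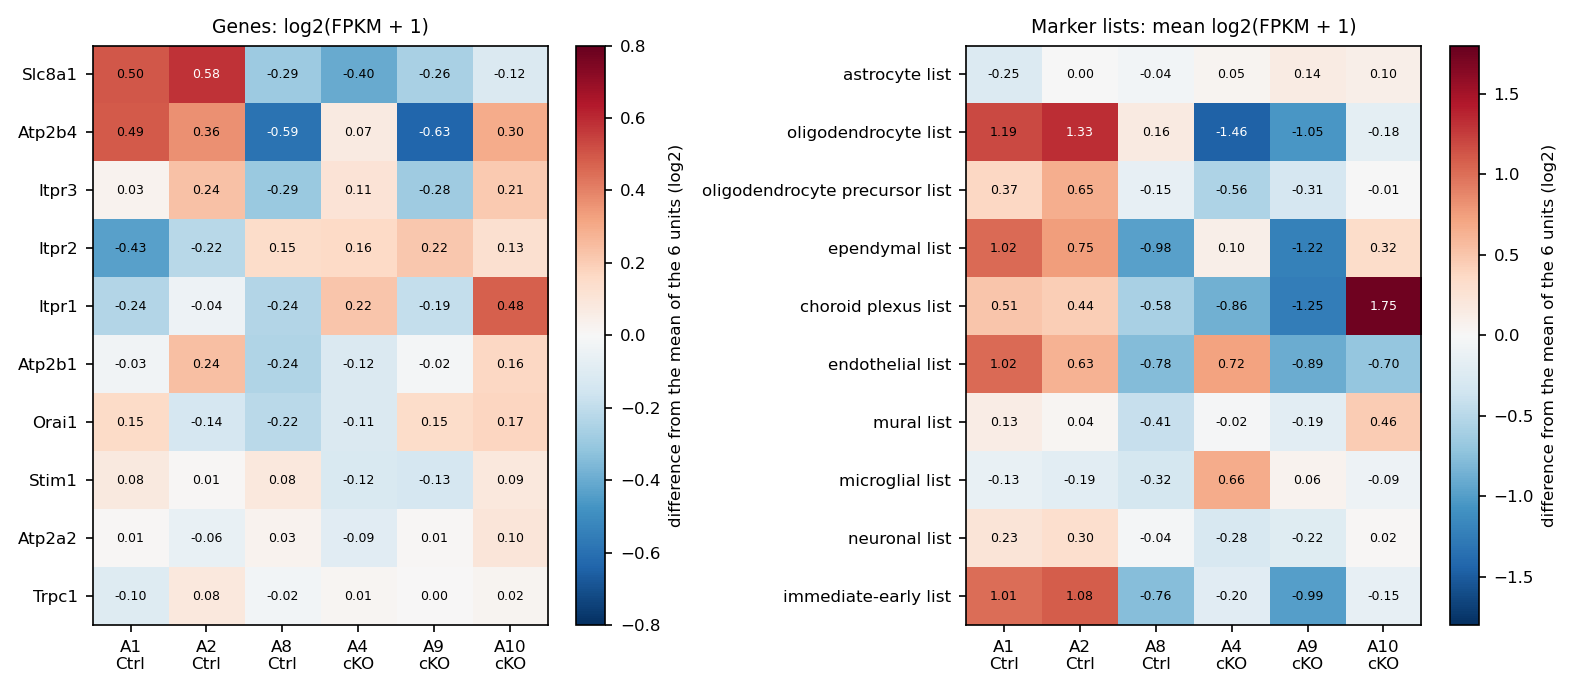
Each unit's difference from the mean of the 6 units (colour and printed number, log2) for the 10 genes on the left, on log2(FPKM + 1), and for the mean of each marker list on the right. Slc8a1 is high in A1 and A2, as the oligodendrocyte and immediate-early lists are, Atp2b4 is lowest in A8 and A9, as the ependymal list is, and Atp2a2 and Trpc1 stay within 0.10 of their means.

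The promoter windows of the genes with these contrasting patterns are shown so that they can be compared. RefSeq windows on GRCm38.p6 reach from 250 bases before to 50 bases after a gene's start, and 8 of the 10 genes have at least 1 in the table used here, 9 windows in all. Of the 10 genes, 0 have the same start and end in the deposited coordinates as in GENCODE M21, which is on GRCm38. The window positions therefore cannot be set beside the gene positions given above. Capitals mark GGGCGG, the core of the GC box that Sp1-family factors bind, or its complement CCGCCC on the shown strand. The window of Slc8a1 is at chr17:81738338-81738637, that of Atp2b4 at chr1:133753698-133753997, and that of Itpr2 at chr6:146502174-146502473, all on the minus strand and written 5′ to 3′.
Slc8a1: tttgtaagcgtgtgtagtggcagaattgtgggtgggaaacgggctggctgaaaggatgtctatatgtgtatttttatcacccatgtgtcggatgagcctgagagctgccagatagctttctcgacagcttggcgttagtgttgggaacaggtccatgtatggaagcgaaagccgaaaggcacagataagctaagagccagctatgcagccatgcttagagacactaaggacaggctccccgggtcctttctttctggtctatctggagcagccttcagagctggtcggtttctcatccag
Atp2b4: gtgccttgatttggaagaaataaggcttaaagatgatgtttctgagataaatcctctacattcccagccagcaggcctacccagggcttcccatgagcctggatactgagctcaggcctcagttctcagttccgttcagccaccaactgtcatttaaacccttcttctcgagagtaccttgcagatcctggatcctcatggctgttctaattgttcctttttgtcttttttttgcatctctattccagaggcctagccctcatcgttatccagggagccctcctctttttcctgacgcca
Itpr2: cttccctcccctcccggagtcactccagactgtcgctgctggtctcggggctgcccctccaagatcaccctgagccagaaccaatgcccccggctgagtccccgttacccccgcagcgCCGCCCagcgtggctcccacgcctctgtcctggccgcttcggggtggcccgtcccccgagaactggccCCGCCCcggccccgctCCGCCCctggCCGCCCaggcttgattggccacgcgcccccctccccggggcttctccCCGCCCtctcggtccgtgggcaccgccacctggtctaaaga
GGGCGG, searched on both strands, was in 7 of the 9 windows, against 60.6% of 12854 windows of tested genes and 35.7% of all 32851 windows. The windows without it were those of Slc8a1 and Atp2b4, while Itpr2 had 5 matches, all on the other strand. The letters CCAAT were in 2 of the 9 windows, against 37.4% of windows of tested genes. TATAAA was in 0 of the 9, against 7.4%. The start in the Atp2b4 window lies 47294 bases inside the GENCODE M21 gene. These matches describe letters, and a window without a match says nothing about a factor.

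Within families, none of the 10 shares differed between genotypes in a two-sided exact permutation test of 3 units against 3. That test cannot give less than 0.1, and after adjustment over the 10 shares every p was 1. Itpr2 held 84.9 ± 3.83% of the summed FPKM of the IP3 receptors in Ctrl and 84.3 ± 4.73% in cKO (SD, n = 3). Itpr1 held 13.8 ± 2.70% and 14.8 ± 3.90%, and Itpr3 the remaining 1.27 ± 1.16% and 0.974 ± 0.840%. Atp2a2 held 97.0 ± 1.85% of the SERCA family in Ctrl and 97.4 ± 0.795% in cKO.

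The plasma membrane pumps were shared more evenly. Atp2b1 held 41.1 ± 3.63% in Ctrl and 42.3 ± 5.32% in cKO, and Atp2b4 held 19.8 ± 8.04% and 16.6 ± 4.47% (SD, n = 3). Atp2b2, a fast pump best known from neurons and hair cells, had a mean of 7.82 FPKM and took 51.5% of the family in A8, where Atp2b4 was low. Among the exchangers, Slc8a1 held 55.5 ± 1.21% in Ctrl and 64.4 ± 9.51% in cKO, with 73.8% in A10. The 3 Ctrl units therefore kept nearly the same split while the level of Slc8a1 differed between them, since Slc8a3, the NCX3 exchanger, held 36.3 ± 1.81% there.

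Of the store-operated genes, Stim1 held 54.0 ± 4.72% of the STIM pair in Ctrl and 57.6 ± 1.86% in cKO, and Orai1 46.4 ± 6.44% and 45.5 ± 0.205% of the ORAI family (SD, n = 3). Orai3 had a mean of 8.03 FPKM, against 7.16 FPKM for Orai1, and was below Orai1 only in A2. Trpc1 was the highest of the TRPC family, with 58.8 ± 6.38% in Ctrl and 57.1 ± 12.7% in cKO.

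**Figure D4:**
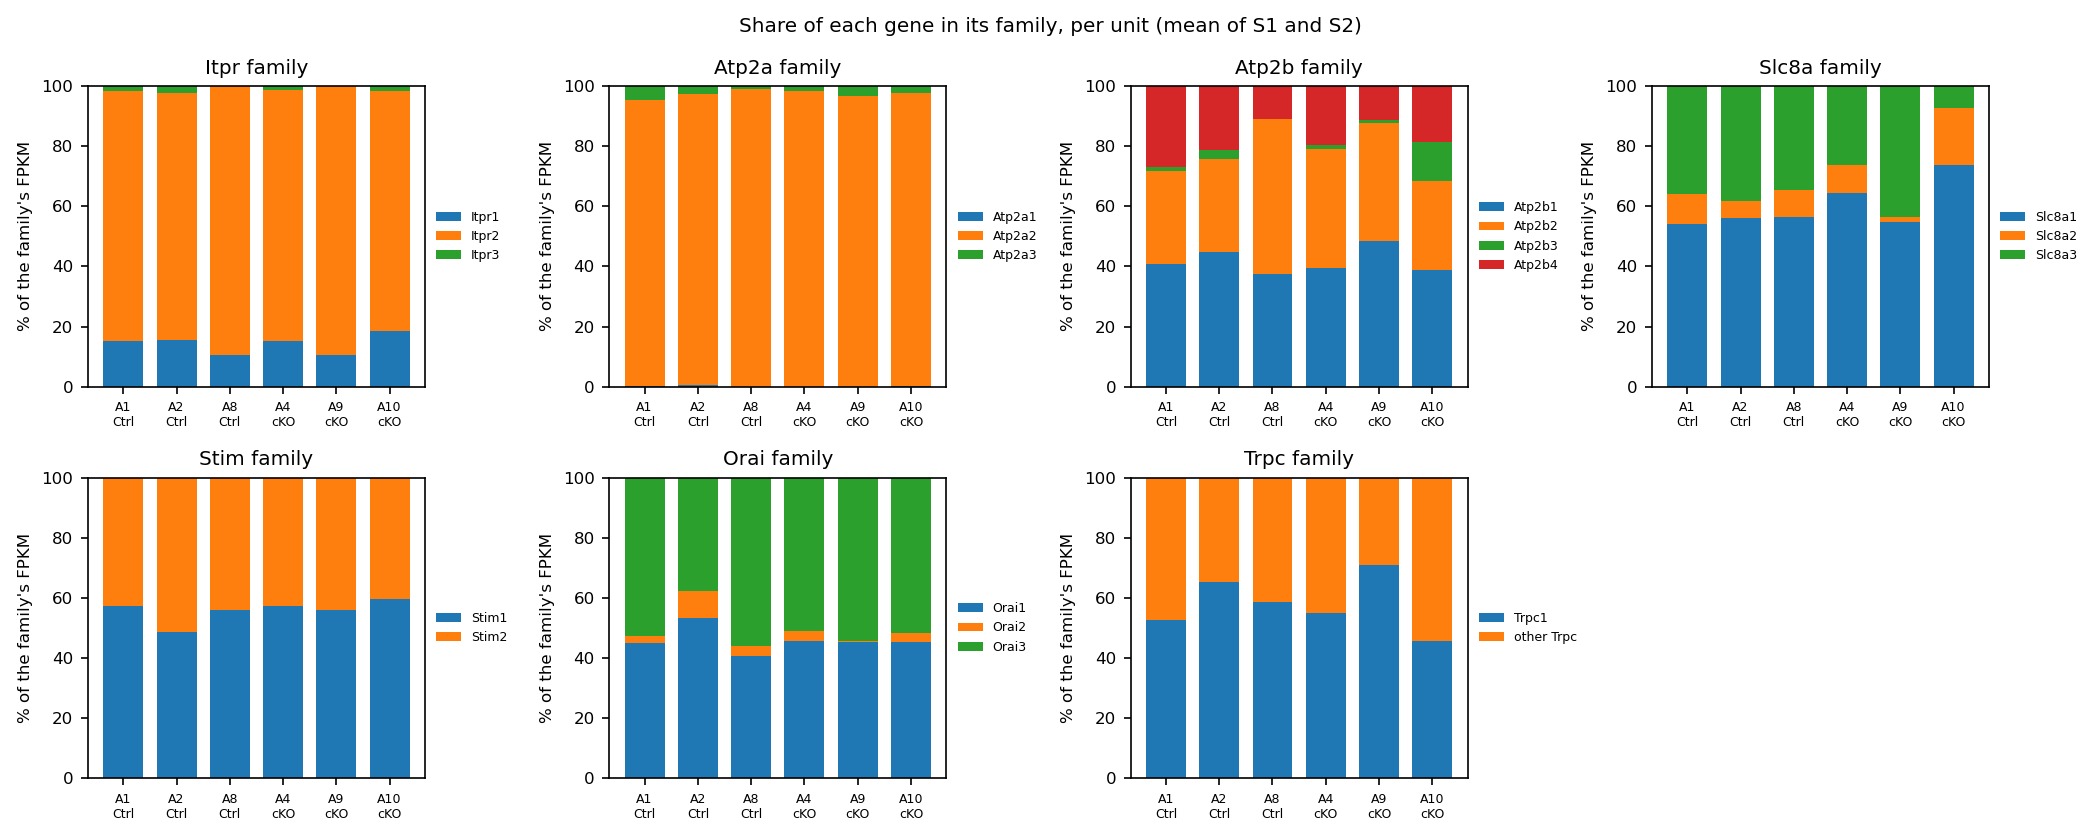
Share of each gene in the summed FPKM of its family (vertical axis, percent) in each of the 6 units (horizontal axis, mean of S1 and S2), one panel per family, with the Trpc genes other than Trpc1 drawn as 1 block. Itpr2 and Atp2a2 fill most of their families in every unit, the Atp2b family is split between Atp2b1, Atp2b2 and Atp2b4, and Slc8a1 takes its largest share, 73.8%, in A10.

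The gene most like each tested member over the 6 units, by Pearson r of log2(FPKM + 1), is given as a description, since with so few units many genes correlate closely. Atp2b4 was closest to Cfap46, a gene of motile cilia, at r = 0.999, and 298 genes exceeded 0.95 with it. Slc8a1 was closest to Gnl3l at 0.995, and 156 genes exceeded 0.95. Itpr2 was closest to Cyp4v3 at 0.993, Itpr1 to Hadh at 0.998, and Atp2b1 to Cdyl2 at 0.999, with 66, 43 and 54 genes above 0.95. The closest genes of Trpc1, Stim1, Orai1 and Atp2a2 were Tspyl3, Gm22220, Gm25819 and Gm4134, at 0.993, 0.985, 0.984 and 0.979.

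The rest of the calcium cycle was read from 7 lists of 90 genes, of which 64 were tested. No gene reached an adjusted p under 0.05 in limma. Unadjusted p was under 0.05 for 0 genes higher and 5 genes lower in cKO, or 7.81% of the tested genes against 7.69% of all. The genotypes did not overlap for 1 gene that was higher and 7 that were lower of the 64, where the background over all tested genes was 5.76% higher, 7.22% lower and 13.0% in either direction. The median log2 difference over the lists was -0.02, with 31 genes higher and 33 lower.

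Among the 15 tested genes of IP3 production and receptor regulation, 1 was lower at an unadjusted p under 0.05, or 6.67%, against 7.69% of all tested genes in either direction. This was Inpp5a, a phosphatase that removes IP3, with a mean FPKM of 8.20 ± 0.577 over the Ctrl units and 5.37 ± 1.34 over the cKO units (SD, n = 3, limma adjusted p = 0.570). Its log2 difference of -0.55 was -0.03 with the oligodendrocyte score in the fit. Plcb1 and Plcd3, phospholipases that make IP3, had log2 differences of 0.18 and 0.36. Of 6 other store release channels, the lysosomal channels Mcoln1 and Tpcn2 were lower in all 3 cKO units than in any Ctrl unit. Over all tested genes, 7.22% were lower in that way. Mcoln1 stood at 5.24, 5.08 and 6.10 FPKM in Ctrl and at 3.54, 4.21 and 3.39 FPKM in cKO (unadjusted p = 0.0286, limma adjusted p = 0.59). It was the 1 gene of these 6 under an unadjusted p of 0.05, or 16.7%, against 7.69% of all tested genes. The log2 difference of Mcoln1, -0.46, was -0.69 with the oligodendrocyte score in the fit. Tpcn2 had a log2 difference of -0.30 (limma adjusted p = 0.832), and the reticulum channel Tmco1 one of 0.20. The ryanodine receptors Ryr1, Ryr2 and Ryr3 were below the filter.

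None of the 6 tested pump partners and other pumps reached an unadjusted p under 0.05. Pln, phospholamban, the small protein that restrains SERCA2, varied more than Atp2a2 itself. It stood at 3.47, 5.38 and 9.19 FPKM in A1, A2 and A8 and at 7.13, 7.34 and 7.81 FPKM in A4, A9 and A10, so the cKO units lay within the Ctrl range. Bsg and Nptn, membrane proteins that accompany the plasma membrane pumps, had log2 differences of 0.15 and 0.12.

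Of 5 other exchangers, Slc24a2 had the largest difference of the lists. This potassium-dependent exchanger is best known from neurons and retinal cones. It stood at 16.6, 17.0 and 9.11 FPKM in A1, A2 and A8 and at 2.26, 2.59 and 6.16 FPKM in A4, A9 and A10. The genotypes did not overlap, and the log2 difference was -1.75 (SE 0.37, unadjusted p = 0.00208, limma adjusted p = 0.333). Slc8b1, the mitochondrial exchanger, and Slc24a3 had log2 differences of 0.48 and -0.32.

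Of 7 other store-operated and TRPC genes, Septin4, a filament protein of the septin family, had a log2 difference of -1.48 (SE 0.27, unadjusted p = 0.00103, limma adjusted p = 0.32). It stood at 51.9, 46.5 and 28.0 FPKM in the Ctrl units and at 12.2, 12 and 18.8 FPKM in the cKO units. Both Slc24a2 and Septin4 separated the genotypes where the oligodendrocyte list did, and Slc24a2 ordered the 6 units exactly as that list, whose sums were 2088, 2273 and 1049 FPKM in A1, A2 and A8 and 302.1, 430.9 and 720.1 FPKM in A4, A9 and A10. With the oligodendrocyte score in the fit the log2 difference was -0.26 for Slc24a2 (SE 0.31) and -0.42 for Septin4 (SE 0.27), and since that score separates the genotypes too, the cells and the genotype cannot be told apart. Stim2, the second store sensor, stood at 5.28, 7.11 and 5.62 FPKM in Ctrl and at 4.52, 4.73 and 4.85 FPKM in cKO. All cKO units were below all Ctrl units, with a log2 difference of -0.29 (SE 0.17, limma adjusted p = 0.772). Saraf, which turns off store-operated entry, had a log2 difference of 0.20.

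None of the 10 tested genes of mitochondrial calcium uptake reached an unadjusted p under 0.05. Micu3, Mcur1 and Vdac3, which regulate or carry that uptake, had log2 differences of 0.38, 0.25 and 0.17. Of 15 buffers and sensors, 1 was lower at an unadjusted p under 0.05, or 6.67%, against 7.69% of all tested genes in either direction. This was Sdf4, a calcium-binding protein of the Golgi, with means of 13.1 FPKM in Ctrl and 8.85 FPKM in cKO and a limma adjusted p of 0.47. Rcn3, a calcium-binding protein of the secretory pathway, was the 1 gene higher in all 3 cKO units, against 5.76% of all tested genes. Its means were 1.95 FPKM in Ctrl and 3.39 FPKM in cKO, with a limma adjusted p of 0.67. Calm3, a calmodulin gene, had a log2 difference of -0.33.

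**Figure D5:**
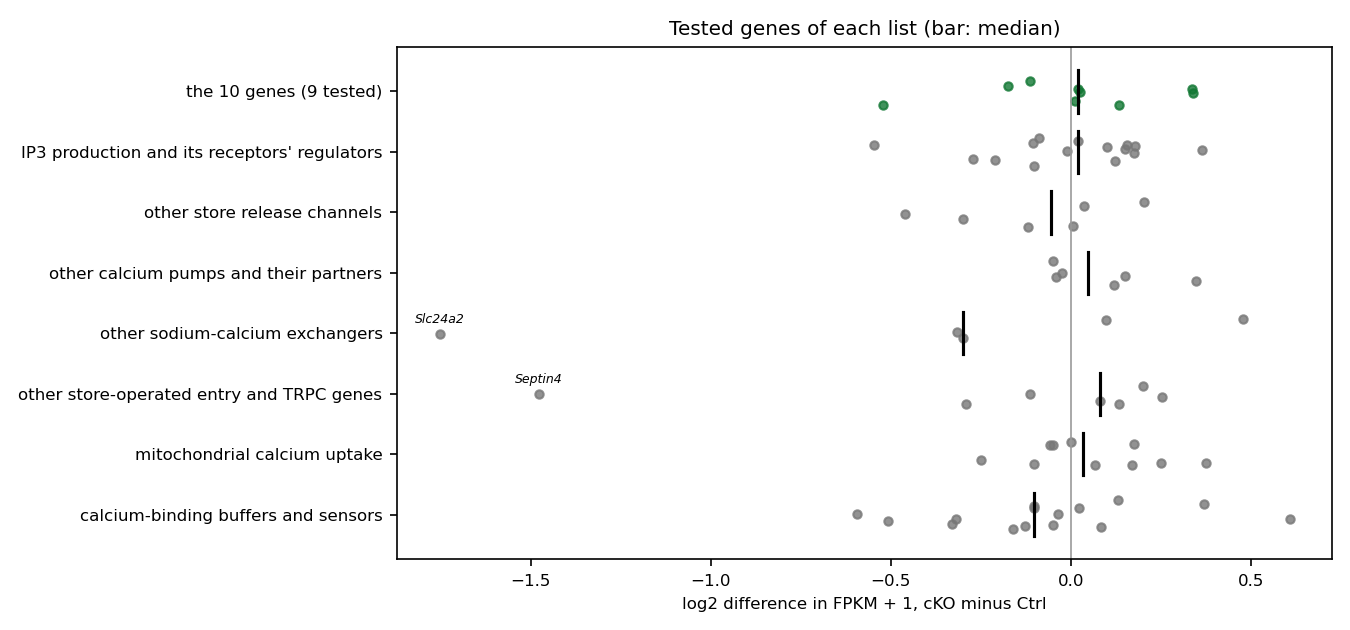
Log2 difference in FPKM + 1, cKO minus Ctrl (horizontal axis), of each tested gene among the 10 genes and the 7 lists (vertical axis); the bar is the median of each list. Most points lie around 0, and Slc24a2 (-1.75) and Septin4 (-1.48) lie farthest to the lower side.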

How the data were processed

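The deposited table holds, per the file headers, FPKM values by library and exonic length in bases. The submitters' processing notes name STAR, featureCounts, FastQC and DESeq2 and the builds mm10 and GRCm38, with no role for each. Among 51948 identifiers also found in GENCODE M21, which is on GRCm38, start and end were identical for 2.77%. The coordinates thus differ from that annotation of a named build, and which build they follow was not settled. Rows sharing 1 of 147 symbols were summed, and 310 rows without a symbol kept their identifier.

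Read totals were recovered from the steps of low FPKM values, where 82.8% to 86.3% of values came out whole within 0.01 read. S1 and S2 of each A number were averaged on the log2(FPKM + 1) scale, and FPKM means are over those 2 libraries. On that scale the change of low genes is understated. The 17540 genes with a mean of at least 1 FPKM entered a two-sided limma fit (version 3.58.1, R 4.3.3, eBayes with a trend), adjusted by Benjamini-Hochberg over all of them with a threshold of 0.05. The fit was run on simulated data to check that it returned the size of an added difference, and its power is not reported here. A zero count allows up to 3 reads, a floor that covers counting error only, since reads carry no molecular identifiers. The 95% intervals are those of limma and reflect the spread between units. Shares used an exact permutation test. Alternatives were other pseudocounts, filters, scalings and models, each S number alone, and leaving out each unit. The same S number pairs no Ctrl unit with a cKO unit.

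The genes and lists were chosen with earlier results of these data known. The rule for names allowed, beside the 10 genes and Tnfrsf1b, the 3 genes of each list with the smallest unadjusted p, the first 2 markers of each marker list, the summed markers, and the most similar gene of each member; the other members of each family stand outside it.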

Additional observations from a re-analysis of the deposited data

How the results depend on the processing

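No setting run gave any of the 10 genes an adjusted p under 0.05. With S1 or S2 alone or any scaling no tested member changed direction, which leaves out Itpr3, a gene below the filter. Across all genes the count at that threshold was 0, except for 0 to 1 when each unit was left out in turn (1 without A1), and 112 when the 12 libraries were fitted with A number as random effect without a replicate block. With the S number as a replicate block in that model it was 80. Those 2 models, which keep S1 and S2 as libraries, also called 1 gene each in the exchanger and store-operated lists, Slc24a2 (adjusted p = 0.0214, or 0.0354 with the replicate block) and Septin4 (adjusted p = 0.0195, or 0.0346 with the replicate block), against 0.333 and 0.32 in limma on unit means. An unadjusted p under 0.05 was reached by 1349 genes, against 709 with a filter of 5 FPKM, 2431 without A8 and 865 without A9. Among the 10 genes it was reached by 0, against 2 without A8, Itpr2 and Slc8a1, and by Itpr2 in both random-effect models and with voom. With the units' oligodendrocyte score as a covariate the log2 difference, cKO minus Ctrl, reversed to -0.05 for Itpr2, 0.90 for Atp2b4, 0.33 for Slc8a1, 0.01 for Stim1, -0.27 for Plcb1 and Pln, -0.05 for Tmco1, -0.24 for Nptn and Mcur1, -0.03 for Slc8b1 and 0.06 for Calm3. Without a reversal it moved from -1.75 to -0.26 for Slc24a2, from -1.48 to -0.42 for Septin4, from -0.55 to -0.03 for Inpp5a, from 0.34 to 0.69 for Itpr1, from 0.02 to 0.51 for Atp2b1 and from 0.14 to 0.47 for Orai1. It also grew from 0.36 to 1.13 for Plcd3 and from 0.38 to 0.62 for Micu3. For Mcoln1 it moved from -0.46 to -0.69, for Slc24a3 from -0.32 to -0.61 and for Stim2 from -0.29 to -0.12. The cause was not tested. Leaving out each unit in turn gave log2 differences of 0.19 to 0.52 for Itpr1, 0.20 to 0.49 for Itpr2, 0.06 to 0.24 for Orai1, -0.80 to -0.36 for Slc8a1, -0.18 to -0.08 for Stim1, -0.03 to 0.06 for Atp2a2, -0.10 to 0.15 for Atp2b1, -0.51 to 0.10 for Atp2b4 and -0.02 to 0.07 for Trpc1. It gave share differences, in percentage points, of -0.944 to 2.94 for Itpr1, -3.12 to 1.59 for Itpr2, -0.931 to 0.213 for Itpr3, -0.52 to 1.33 for Atp2a2, -1.83 to 3.08 for Atp2b1, -7.56 to 0.35 for Atp2b4, -3.67 to 2.65 for Orai1 and -8.52 to 4.02 for Trpc1. Upper quartile scaling moved the median of all tested genes from -0.01 to 0.06. S2 minus S1 correlated by 0.133 to 0.19 across genes between A numbers. Depth limits Itpr3, whose libraries held 0 to 143 reads.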

Other observations

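In the TRPC family, Trpc4 and Trpc2, which were below the filter and were chosen after their values were seen, had family shares that did not overlap between the genotypes. Trpc4 held 1.33 ± 0.728% in Ctrl and 4.48 ± 1.24% in cKO, and Trpc2 held 19.95 ± 8.57% and 10.3 ± 3.01% (SD, n = 3). For each the two-sided exact permutation p was 0.1, the smallest that 3 units against 3 can give. Their levels were low, at 0.319 to 1.57 FPKM for Trpc2 and 0.0265 to 0.392 FPKM for Trpc4 over the 6 units.

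Atp2b3, a plasma membrane pump best known from neurons, was at 0 FPKM in A8 and at 3.36 FPKM in A10, where it held 12.9% of its family. A10 was also the unit with the highest Itpr1 and the highest choroid plexus markers.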
